A study of Mus musculus with 40 samples.

Results

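The midbrain-hindbrain boundary genes are 10 genes that pattern the embryonic midbrain and anterior hindbrain: *En1*, *En2*, *Gbx2*, *Pax2*, *Pax5*, *Pax8*, *Wnt1*, *Fgf8*, *Fgf17* and *Cnpy1*. They are 10 of 22028 protein-coding genes in the annotation, and all 10 were found there. The set was chosen by name from knowledge of this boundary, around *En2* and *Cnpy1*, which had been selected on H3K27me3 peaks present in K27M and missing in control cultures. Every H3K27me3 difference between K27M and control is therefore given below as a description, with no test.

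The samples were primary cultures of oligodendrocyte precursor cells (OPCs), the dividing cells that give rise to myelinating oligodendrocytes, kept in proliferation medium. OPCs were purified with an antibody to PDGFRa from the brainstem or the dorsal telencephalon (labelled cortex) of litters aged P5 to P7, with mice pooled within a litter by region and genotype. K27M cultures came from mice that carry *H3-3a-LSL-K27M*, a knock-in of the histone H3.3 lysine-to-methionine change at the endogenous gene, and hGFAP-Cre, which is active in neural stem and progenitor cells, the cells from which OPCs arise. Control cultures came from littermates, and all mice were on the FVB background. Brainstem cultures 59 and 61 and telencephalon cultures 59, 60 and 61 each gave a control and a K27M sample, which makes 5 matched pairs. The labels do not say whether cultures of the same number from the 2 regions share a litter.

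The boundary, or isthmus, is a signalling centre between the midbrain and the hindbrain. The secreted factors FGF8, FGF17 and WNT1 act from it, the paired-box factors PAX2, PAX5 and PAX8 and the homeodomain factors EN1 and EN2 are expressed around it, and GBX2 marks its hindbrain side. CNPY1 is a protein of the endoplasmic reticulum known from fish for promoting FGF signalling at this boundary. H3K27me3 is the repressive mark set by Polycomb repressive complex 2, which the K27M histone inhibits, and it covers developmental genes that a lineage does not use. H3K4me3 marks promoters, and a promoter with both marks is called bivalent.

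*En2* (chr5:28165694-28172166, plus strand) and *Cnpy1* (chr5:28200819-28245806, minus strand) face each other on mouse chromosome 5, and all positions are on mm10. Transcripts of *Cnpy1* start at 2 outer sites (28237873 and 28245806) and at an inner group of 3 sites within the gene (28210022, 28210168 and 28210363), the nearest 44.3 kb from the *En2* start. A promoter was taken as the 3000 bases from 2000 upstream to 1000 downstream of a start. A gene with several starts is given by its most covered promoter in each library, which could be another start in another library. Promoter sequences are shown for the 2 ends of *Cnpy1*, which differed in both marks, and for *En1* and *Gbx2*, which differed from each other in H3K27me3. Each is the 250 bases before the outermost start of the group, read 5′ to 3′ from GRCm38.p6, the same assembly as mm10, with CG dinucleotides in capitals (CG reads the same on both strands). RefSeq's promoter table has no entry for *En2*, *Fgf8* and *Fgf17*.
*Cnpy1* inner, chr5:28210364-28210613, minus strand: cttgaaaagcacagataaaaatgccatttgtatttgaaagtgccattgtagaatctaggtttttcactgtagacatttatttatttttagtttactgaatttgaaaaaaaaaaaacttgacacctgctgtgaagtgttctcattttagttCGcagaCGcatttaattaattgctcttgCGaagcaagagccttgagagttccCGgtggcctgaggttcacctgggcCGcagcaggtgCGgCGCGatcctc
*Cnpy1* outer, chr5:28245807-28246056, minus strand: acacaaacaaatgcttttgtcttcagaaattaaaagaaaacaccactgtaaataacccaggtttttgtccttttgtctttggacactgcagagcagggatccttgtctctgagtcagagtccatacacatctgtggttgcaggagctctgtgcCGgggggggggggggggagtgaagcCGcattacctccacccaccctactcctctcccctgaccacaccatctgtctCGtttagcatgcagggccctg
*En1*, chr1:120602168-120602417, plus strand: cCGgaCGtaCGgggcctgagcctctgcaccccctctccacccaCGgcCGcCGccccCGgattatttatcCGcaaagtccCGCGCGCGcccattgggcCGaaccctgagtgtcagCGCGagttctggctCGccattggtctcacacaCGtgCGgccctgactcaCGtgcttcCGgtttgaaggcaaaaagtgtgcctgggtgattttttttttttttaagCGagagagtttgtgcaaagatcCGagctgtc
*Gbx2*, chr1:89931180-89931429, minus strand: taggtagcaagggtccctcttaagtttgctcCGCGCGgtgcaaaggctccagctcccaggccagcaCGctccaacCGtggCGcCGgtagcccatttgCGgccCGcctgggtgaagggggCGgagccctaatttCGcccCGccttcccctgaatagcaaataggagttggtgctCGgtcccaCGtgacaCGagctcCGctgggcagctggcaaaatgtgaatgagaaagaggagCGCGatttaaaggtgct

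The inner *Cnpy1* sequence holds 8 CG dinucleotides and lies under an H3K4me3 peak in all 10 libraries, and under an H3K27me3 peak in 5 of 5 K27M and 1 of 5 control libraries. The outer sequence holds 3 and lies under no peak of either mark in any library. *En1* holds 22 and *Gbx2* 18, against a median of 6 over 32841 RefSeq promoter sequences of this length. Fewer CG dinucleotides were found in 57% of those promoters than in the inner *Cnpy1* sequence and in 29% than in the outer one. For *En1* and *Gbx2* these shares were 85.2% and 78.3%. The *Gbx2* stretch also lies in an exon of the antisense gene *D130058E05Rik*.

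Both marks were read from peak lists of 20 ChIP-seq libraries, 10 for each mark. A list gives intervals where reads exceeded those of the library's own input, so a base is either under a peak or not, and mark below the calling threshold is not seen. H3K27me3 lists held 12715 to 64808 peaks in control and 4739 to 15753 in K27M libraries, and covered 26.5 to 152 Mb and 13.3 to 41.4 Mb. K27M had the shorter covered length in 5 of 5 pairs, while the median fold enrichment over input at marked promoters was 2.52 to 3.33 in control and 3.03 to 4.79 in K27M libraries. H3K4me3 lists held 20961 to 31200 peaks. Their median fold at promoters differed widely between libraries, with 4.12 and 6.58 in the control and K27M libraries of telencephalon culture 59 and 63.9 in the control of telencephalon culture 60. All 5 OPC markers (*Pdgfra*, *Cspg4*, *Olig1*, *Olig2*, *Sox10*) had promoter H3K4me3 in all 10 libraries and H3K27me3 in none, and no microglial marker of 3 had H3K4me3 in any. Of the endothelial markers *Cldn5* had it in 5 libraries and *Pecam1* and *Tek* in 0, and the 3 neuronal markers had it in all 10. Of the astrocyte markers, *Aldh1l1* and *Gfap* had H3K4me3 in 6 libraries each and *Aqp4* in 1, and mean coverage was higher in K27M for all 3, with a median difference of 195 bases. Their part in the differences between genotypes was not tested. *Hoxb2*, a hindbrain gene, had H3K4me3 in 2 of 2 brainstem libraries of each genotype and in 0 of 3 telencephalon libraries of each, but *Hoxa2* and *Hoxa3* had it in 2 of 3 and *Hoxb3* in 1 of 3 telencephalon controls.

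*En2*, an engrailed homeodomain factor, and *Cnpy1* were the 2 boundary genes with promoter H3K27me3 in more K27M than control cultures. In the order brainstem 59 and 61, then telencephalon 59, 60 and 61, H3K27me3 peaks covered 0, 105, 0, 1608 and 0 bases of the *En2* promoter in controls. In the K27M cultures of the same order they covered all 3000 bases in each of 5. No K27M culture overlapped a control, and the mean difference was 2657 ± 709 bases (SD, n = 5 pairs). The cultures are bulk samples, so a mark present in fewer cells and less of it in each cell cannot be told apart.

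*Cnpy1* showed the same pattern at its inner promoter, with 0, 1197, 0, 828 and 0 bases covered in controls and 3000 in each K27M culture. The mean difference was 2595 ± 570 bases (SD, n = 5). H3K27me3 covered 0, 15.5, 0.758, 6.27 and 0% of its gene body in controls and 34.6, 32.7, 27.3, 26.6 and 28.2% in K27M cultures, a difference of 25.4 ± 6.83 percentage points (SD, n = 5). Every K27M culture lay above every control. The promoters at the outer starts had no H3K27me3 peak in any of the 10 libraries.

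**Figure D1:**
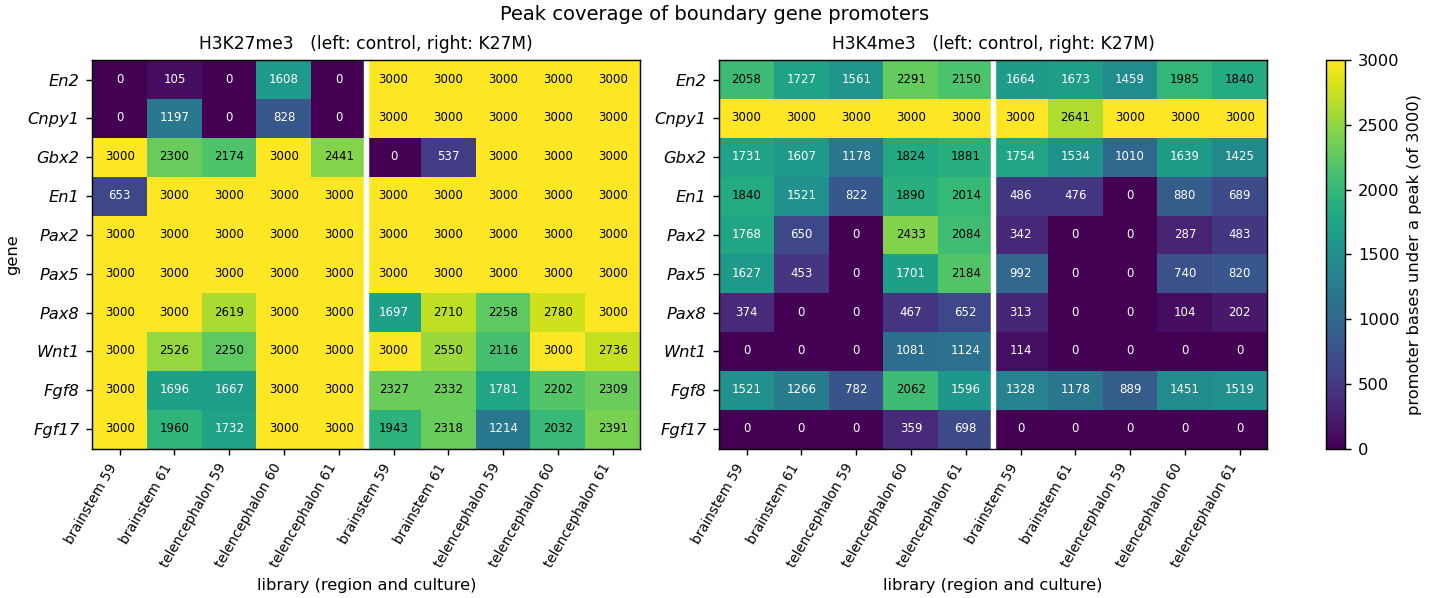
Bases of each gene's most covered promoter under a peak, out of 3000, for H3K27me3 (left panel) and H3K4me3 (right panel); rows are genes, columns are libraries, controls left and K27M right of the white line. *En2* and *Cnpy1* go from 0 to 1608 H3K27me3 bases in controls to 3000 in every K27M library, while *Pax2* and *Pax5* stand at 3000 throughout.

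Among 8005 protein-coding genes with promoter H3K27me3 in at least 1 library, 1.99% had it in more K27M than control cultures and 77.6% in fewer, against 2 and 1 of the 10 boundary genes. A promoter peak in 5 of 5 K27M and at most 2 of 5 control cultures was found at 0.212% of them, 17 genes, of which *En2* and *Cnpy1* are 2. Coverage was higher in K27M in 5 of 5 pairs at 0.0874%, 7 genes, again with *En2* and *Cnpy1* among them. Since both genes were selected on this contrast, these shares describe them and are no test. The other 7 boundary genes had promoter H3K27me3 in all 10 libraries, which holds for 15.9% of the 8005.

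The same libraries that covered less of the genome with H3K27me3 covered more of the *En2* to *Cnpy1* interval. From the *En2* start to the far end of *Cnpy1*, 80113 bases, peaks covered 0, 17435, 3117, 16341 and 0 bases in controls. In K27M cultures they covered 46053, 41769, 26637, 29279 and 30323 bases. The lowest K27M value exceeded the highest control value, and the mean difference was 27434 ± 12146 bases (SD, n = 5). Peaks were called against each library's own input and were not scaled to the added Drosophila chromatin. Covered bases, and the fold and rank given below, thus cannot show whether the absolute amount of mark rose.

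**Figure D2:**
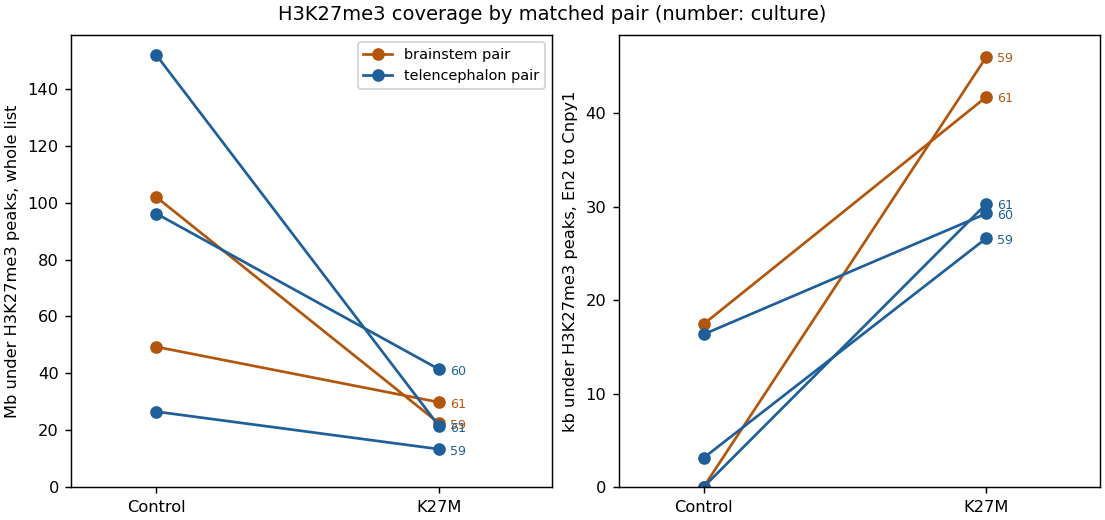
H3K27me3 peak coverage of the whole list (left, Mb) and of the *En2* to *Cnpy1* interval (right, kb) in the 5 matched pairs; each line joins the control and K27M library of a culture. Whole-list coverage falls in every pair, to at most 41.4 Mb, and interval coverage rises in every pair, to at least 26.6 kb.

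Within the interval the K27M mark formed 2 long domains, 1 over each gene. The *En2* domain was 29994 and 28776 bases long in the brainstem cultures and 24368, 26350 and 25927 bases in the telencephalon cultures. Relative to the *En2* start it began at -13.7 to -10.6 kb and ended at 13.7 to 16.3 kb. The *Cnpy1* domain spanned the inner starts and measured 29135 and 23755 bases in the brainstem and 12854, 13551 and 14670 bases in the telencephalon. In both brainstem cultures it reached further on both sides than in any telencephalon culture. It ran from 21.6 to 50.7 and from 25.7 to 49.4 kb after the *En2* start in the brainstem, and it began at 33 to 34.6 kb and ended at 46.6 to 47.8 kb in the telencephalon. Both brainstem K27M cultures also covered more of the whole interval than the 3 telencephalon ones, by 43911 against 28746 bases on average, and this regional difference was seen in the data first and was not tested.

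Fold enrichment in the *En2* domain was 24.7 and 22.3 in the brainstem K27M cultures and 7.13, 14.5 and 23.8 in the telencephalon ones. The *Cnpy1* domain had lower values, 10.2 and 11.1 for the brainstem and 3.33, 4.63 and 8.16 for the telencephalon. Fold depends on depth and antibody yield in each library, so genes were also ranked within a library by the highest fold of a promoter peak. By that rank *En2* stood above 85.9 to 96.9% of the genes with promoter H3K27me3 in the 5 K27M libraries, and *Cnpy1* above 56.7 to 80.5%. In the 2 controls with a peak the ranks were 56 and 87.3% for *En2* and 20.6 and 22.5% for *Cnpy1*.

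**Figure D3:**
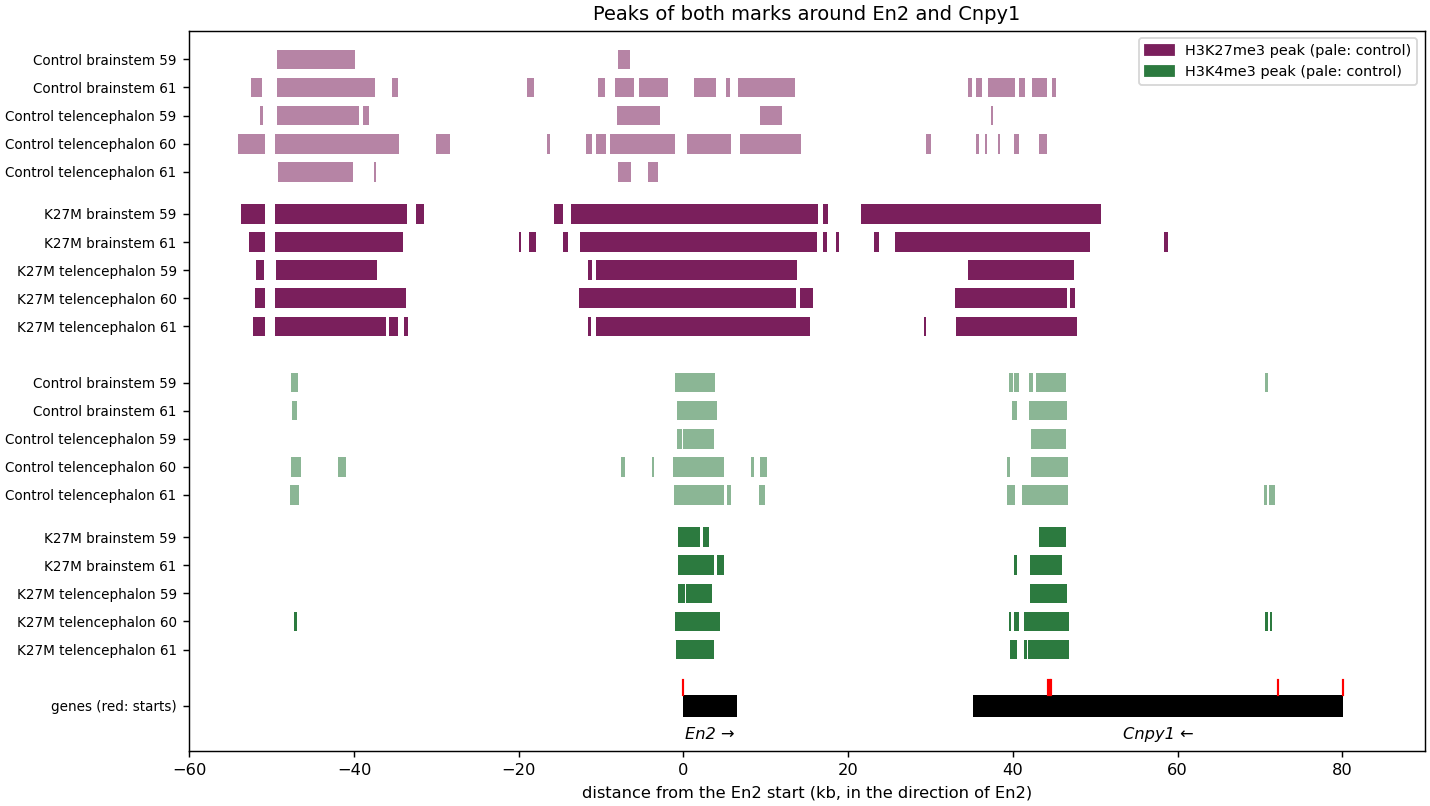
Peaks of both marks by distance from the *En2* start (kb) in the 20 libraries, pale for controls, with the gene bodies and transcript starts at the bottom. H3K27me3 domains over *En2* and the inner *Cnpy1* starts are continuous in all 5 K27M libraries and broken or missing in controls, whereas H3K4me3 peaks at both places and the H3K27me3 domain from -49.2 to -40.1 kb are present throughout.

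Control cultures were not free of H3K27me3 near *En2*. A domain upstream of the gene, from -49.2 to -40.1 kb relative to its start, was under a peak in all 10 libraries and holds no annotated gene. A second stretch of 1376 bases, from -7.9 to -6.53 kb, was also under a peak in all 10. In the brainstem control 61 and the telencephalon controls 59 and 60, H3K27me3 reached further, in pieces on both sides of the *En2* start. In telencephalon control 59 the nearest pieces ended at -2.84 kb and began at 9.24 kb. That control, brainstem control 59 and telencephalon control 61 had no peak at the promoter. Between 50 and 34 kb upstream the coverage was 9377 to 15093 bases in controls and 12269 to 15626 in K27M cultures, higher in K27M in 5 of 5 pairs.

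Cut into 81 bins of 1 kb from the *En2* start, the interval had H3K27me3 in all 5 K27M libraries in 28 bins and in all 5 controls in 0. No bin had it in a control without having it in at least 1 K27M library, and 31 bins had none in any library. Over the whole genome, 11003745 bases were under an H3K27me3 peak in all 5 K27M libraries, and 0.0655% of them, 7212 bases in 12 stretches, were under a peak in no control. *En2* and *Cnpy1* were selected on peaks of this kind, so the place of these stretches is a description and no test. Of the 12 stretches, 11 lay within 60 kb of the *En2* start, with 98.8% of the bases. The longest 2 were 1422 bases beside the inner *Cnpy1* starts (chr5:28210873-28212294) and 1392 bases over the *En2* start (chr5:28164720-28166111). Both ends of the *En2* stretch are ends of peaks in the telencephalon control 60, so its length was set by a gap in that library. The 3 inner *Cnpy1* starts themselves lay in another of these stretches, of 614 bases (chr5:28209851-28210464).

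H3K4me3 was not a criterion in choosing the genes, although earlier results of these data were known at that time. The mark was present at both promoters in all 10 libraries. At *En2* it covered 2058, 1727, 1561, 2291 and 2150 bases in controls and 1664, 1673, 1459, 1985 and 1840 in K27M cultures. It was lower in K27M in 5 of 5 pairs, with a mean difference of -233 ± 147 bases (SD), although the groups overlapped. At the inner *Cnpy1* promoter it covered all 3000 bases in every library but the K27M brainstem culture 61, with 2641. The inner starts lay in a stretch of 2814 bases under an H3K4me3 peak in all 10 libraries. Both promoters thus carried both marks in 5 of 5 K27M cultures and in 2 of 5 controls, with H3K4me3 alone in the other 3.

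*En1*, the second engrailed gene, was marked in both genotypes. H3K27me3 covered its promoter fully in 4 of 5 controls and in 5 of 5 K27M cultures, and the exception was the brainstem control 59 with 653 bases. Its rank by H3K27me3 fold was high and similar in both genotypes, with medians of 94.2% in controls and 94% in K27M libraries. H3K4me3 was where *En1* differed: it covered 1840, 1521, 822, 1890 and 2014 promoter bases in controls and 486, 476, 0, 880 and 689 in K27M cultures. Coverage was lower in K27M in 5 of 5 pairs, with a mean difference of -1111 ± 225 bases (SD), and only the K27M telencephalon culture 60 (880 bases) exceeded any control.

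*Gbx2*, a homeobox gene of the hindbrain side, differed between regions. Its promoter H3K27me3 covered 3000 and 2300 bases in the brainstem controls and 0 and 537 in the brainstem K27M cultures. In the telencephalon it covered 2174, 3000 and 2441 bases in controls and 3000 in each of the 3 K27M cultures. At the start 89929185 taken alone, the fall in brainstem culture 61 was smaller, from 823 bases in control to 537 in K27M. *Gbx2* was the 1 boundary gene with promoter H3K27me3 in fewer K27M than control cultures, and that came from the brainstem alone. The highest fold fell in both brainstem pairs, from 3.09 to no peak and from 3.53 to 2.4, and rose in the 3 telencephalon pairs, from 3.05 to 5.35, from 10.1 to 10.8 and from 2.63 to 17.6. The rank within the library moved less evenly in the telencephalon, from 76.1 to 78%, from 91.3 down to 82% and from 39 to 87.6%, so the direction of culture 60 depended on the scale. H3K4me3 was present at *Gbx2* in all 10 libraries, with 1178 to 1881 bases in controls and 1010 to 1754 in K27M cultures.

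**Figure D4:**
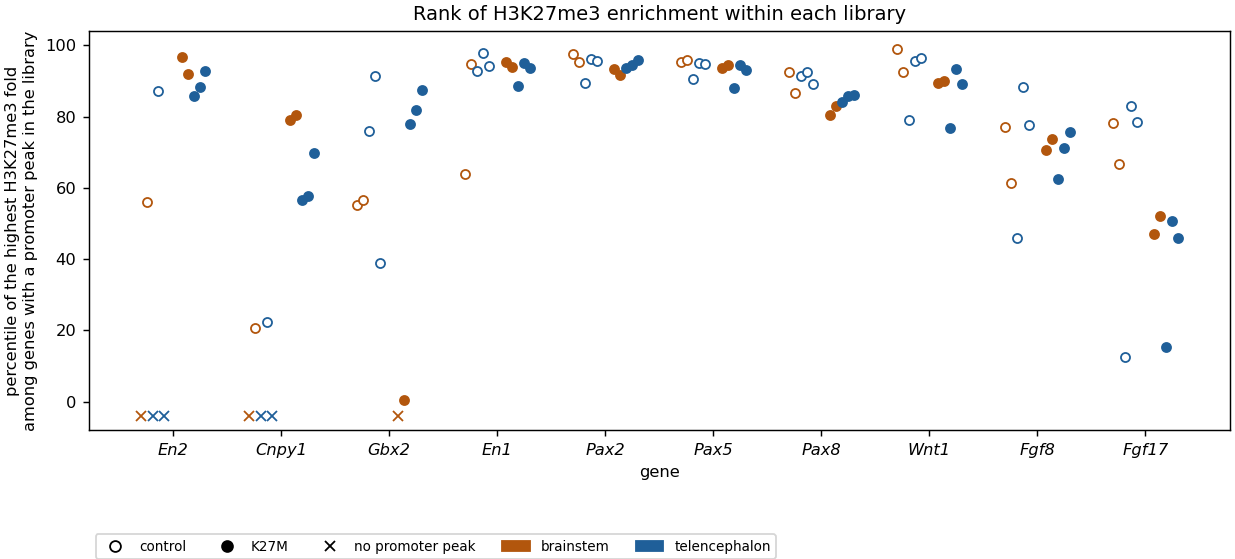
Rank of each gene's highest promoter H3K27me3 fold among the genes with a promoter peak in the same library (percentile, y axis), for controls (open) and K27M (filled) by region; crosses have no promoter peak. *En2* and *Cnpy1* lack a peak in 3 of 5 controls, *Gbx2* lacks one in a brainstem K27M library, and *Pax2* and *Pax5* stay between 88.1 and 97.7.

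The paired-box genes *Pax2*, *Pax5* and *Pax8* kept promoter H3K27me3 in every library, with all 3000 bases covered at the most covered promoter of *Pax2* and *Pax5*. The promoter of the *Pax5* start 44683815, within the gene, differed. There the mark covered 3000, 3000, 0, 2864 and 3000 bases in controls and 528, 1238, 0, 0 and 0 in K27M cultures. At *Pax8* the coverage was 2619 to 3000 bases in controls and 1697 to 3000 in K27M cultures. The mark was more confined along the *Pax2* gene body in K27M, where it covered 74, 72.7, 30, 77.1 and 93.8% in controls and 34.6, 31.7, 17.4, 30.9 and 23.6% in K27M cultures, a difference of -41.9 ± 20.5 percentage points (SD) that was negative in 5 of 5 pairs. *Pax8* was also lower in 5 of 5 pairs, with a difference of -11.1 ± 8.74 percentage points, and *Pax5* in 4 of 5. Over 8596 genes with H3K27me3 in the body, 18.5% were lower in 5 of 5 pairs and 38% in at least 4, against 2 and 4 of the 10 boundary genes (*Fgf17* is the fourth), so these falls were near the share of all genes.

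H3K4me3 was lower or equal at the 3 paired-box promoters in K27M in all pairs. *Pax2* had 1768, 650, 0, 2433 and 2084 bases in controls and 342, 0, 0, 287 and 483 in K27M cultures, and no K27M culture exceeded 483 bases. *Pax5* had 1627, 453, 0, 1701 and 2184 bases in controls and 992, 0, 0, 740 and 820 in K27M cultures. *Pax8*, the least marked of the 3, had 0 to 652 bases in controls and 0 to 313 in K27M cultures. Telencephalon culture 59, whose H3K4me3 libraries had the lowest fold, had no H3K4me3 peak at any of the 3 in either genotype.

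Of the secreted factors, *Wnt1* had H3K27me3 over its whole body and over 2250 to 3000 promoter bases in controls and 2116 to 3000 in K27M cultures. *Fgf8* had 1667 to 3000 and 1781 to 2332 bases, and *Fgf17* 1732 to 3000 and 1214 to 2391 bases. H3K4me3 at *Fgf8* was present in all 10 libraries, with 782 to 2062 bases in controls and 889 to 1519 in K27M cultures. At *Wnt1* it was found in the telencephalon controls 60 and 61, with 1081 and 1124 bases, and in the K27M brainstem culture 59 with 114. At *Fgf17* it was found in those same 2 controls alone, with 359 and 698 bases. These 2 controls had the highest H3K4me3 fold of all libraries, with medians of 63.9 and 51.2, and the part of that in the *Wnt1* and *Fgf17* peaks was not tested.

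**Figure D5:**
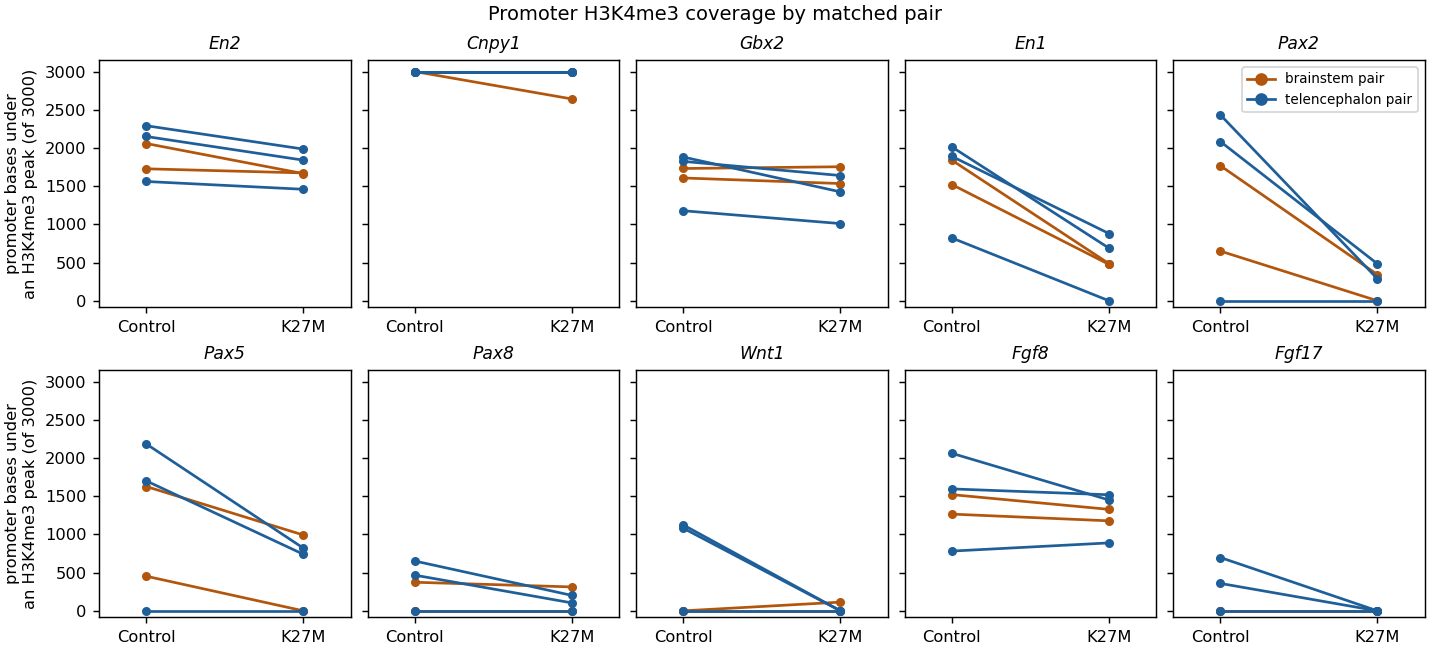
Bases of each gene's promoter under an H3K4me3 peak, out of 3000, in control and K27M libraries joined by matched pair (orange brainstem, blue telencephalon). Lines fall in 5 of 5 pairs at *En2* and *En1*, and the K27M values of *Pax2* lie at or below 483 bases.

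Across the 10 genes, mean promoter H3K4me3 coverage was lower in K27M for 10 and higher for 0, with a median difference of -222 bases. Over 14611 protein-coding genes with promoter H3K4me3 in at least 1 library the median was 39.8 bases, with 4850 lower and 9594 higher. *En1* and *En2* were lower in 5 of 5 pairs, against 0.719% of the 14611. These 2 with *Pax2*, *Pax5* and *Pax8* were lower in at least 3 pairs and higher in none, 5 of 10 against 2.16%, and the opposite pattern was seen in 0 of 10 against 6.34%. Among the 1271 genes that had promoter H3K27me3 in all 5 K27M cultures the shares were 3.62% and 14.5%.

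Signs of the 5 pair differences were flipped in every way in a two-sided exact permutation test, in which *En1* and *En2* reached p = 0.0625, the smallest this test can give, and *Pax2*, *Pax5* and *Gbx2* had p = 0.125. After Benjamini-Hochberg adjustment over the 14611 genes the lowest value of a boundary gene was 0.872 (exact permutation test), so no change in H3K4me3 passed a threshold of 0.05. With 5 pairs it could not have done so for any gene. The median H3K4me3 fold of the libraries also differed within pairs: it was lower in K27M in telencephalon cultures 60 (63.9 and 32.8) and 61 (51.2 and 33.1), and higher in K27M in the other 3 pairs. In those 3 pairs *En1* and *En2* coverage was lower in K27M, whereas the 3 rises seen at any boundary gene also occurred there, at *Gbx2* (23 bases) and *Wnt1* (114) in brainstem 59 and at *Fgf8* (107) in telencephalon 59. The *Gbx2* rise sets different starts against each other. Its coverage went from 1534 to 1754 bases at the start 89929185 and from 1731 to 1335 at 89931179. The *Gbx2* difference of telencephalon 61 also mixes its starts, so the *Gbx2* p-value is not of a single promoter. In brainstem culture 61 the whole H3K4me3 list covered less in K27M (31.3 Mb) than in control (38.1 Mb). In the other pairs it covered more in K27M. *Wnt1* and *Fgf17* were lower in K27M only in telencephalon cultures 60 and 61. The part of library fold and covered length in these H3K4me3 differences was not tested.

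Between regions, no boundary gene separated the control cultures. Promoter H3K27me3 coverage was higher in every telencephalon than in every brainstem control at 0.676% of 7990 genes and lower at 2.18%, against 0 and 0 of the 10. For H3K4me3 these shares were 0.771% and 15.7% of 14529 genes, again against 0 and 0. At *En2* H3K4me3 averaged 2001 bases in the telencephalon and 1892 in the brainstem controls (two-sided exact permutation test, p = 0.7), and at *En1* 1575 and 1680 bases (exact permutation test, p = 1). With 2 against 3 cultures this test cannot go below 0.1.

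Promoter states were also set from peaks shared by at least 2 cultures of a region and genotype, by the rule for combining replicates given in the study's methods. In the brainstem, *En2* and *Cnpy1* had H3K4me3 alone in controls and both marks in K27M, while *Gbx2* had both marks in controls and H3K4me3 alone in K27M. *Pax2* and *Pax5* went from both marks to H3K27me3 alone. A shared peak needed both brainstem cultures, and single cultures could differ from the call. Both marks were present in K27M culture 59 at *Pax2* and *Pax5*, in K27M culture 61 at *Gbx2*, and in control 61 at *En2* and *Cnpy1*. In the telencephalon, *Cnpy1* went from H3K4me3 alone to both marks and *Pax8*, *Wnt1* and *Fgf17* from both marks to H3K27me3 alone. Culture by culture *Pax8* did not change: it had both marks in 3 of 5 cultures of each genotype, telencephalon K27M cultures 60 and 61 included. *En2* had both marks in each telencephalon genotype, because the shared peak of the controls lay upstream and reached the promoter in culture 60 only. No boundary gene lacked both marks in any group.

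Of 15 partners of the boundary genes, 10 had promoter H3K27me3 in all 10 libraries. It was found in more K27M than control cultures at 1, *Meis2*, in 1 of 2 brainstem K27M cultures and no other library, and in fewer at 3, *Fgf18*, *Pax3* and *Tle4*. *Tle4*, a corepressor, had it in 2 of 2 and 2 of 3 controls and in no K27M culture. The 11 genes of FGF feedback and reception all had promoter H3K4me3 in all 10 libraries, and 7 of them, *Spry1*, *Spry2* and *Dusp6* included, had H3K27me3 in none. The paralogs *Cnpy2*, *Cnpy3* and *Cnpy4* had H3K4me3 in all 10 and H3K27me3 in none.

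The H3K27me3 seen over *En2* and *Cnpy1* in K27M did not extend to the next protein-coding promoters. *Insig1*, at -91 kb from the *En2* start, and *Paxip1*, at -374 kb, had no promoter H3K27me3 in any library. *Rbm33*, at 151 kb, had it in 1 brainstem control, and *Htr5a*, at -324 kb, in 1 brainstem and 2 telencephalon controls and no K27M culture. *Shh*, at 302 kb, had it in all 10.

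Over the 10 H3K27me3 libraries, the promoter most like that of *En2* among 7692 genes was *Cnpy1* (Pearson r = 0.953), followed by *Msx1* (0.915), *Bmpr2* (0.897), *Hlx* (0.839) and *Onecut1* (0.8). By gene body, the gene most like *Cnpy1* among 8430 was *En2* (0.9), followed by *Bmpr2* (0.877), *Gm11627* (0.839), *Onecut2* (0.815) and *Tfap2a* (0.783). The 10 points share libraries and each library's threshold, so these values order genes and carry no test. *En2* and *Cnpy1* were also both selected on this H3K27me3 contrast, so a high r between them followed from that choice. *Msx1*, *Hlx* and *Onecut1* also reached 3000 bases in all 5 K27M cultures. In controls they had 1409 to 3000, 1310 to 3000 and 0 to 3000 bases, where *En2* had 0 to 1608.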

How the data were processed

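H3K27me3 and H3K4me3 ChIP-seq was done on 10 libraries each. The authors trimmed reads with Trim Galore 0.6.7 and cutadapt 3.4, aligned them to mm10 with BWA 0.7.17-r1188, and called peaks per library, with no pooling, against its own input with MACS2 2.2.7.1 (broad peaks at a cutoff of 0.1 for H3K27me3), leaving out blacklisted regions. The deposited lists give each peak's fold enrichment over input, a ratio, with its p-value and q-value as −log10. Peaks were called without the Drosophila spike-in. Read depth is not in the lists, so no interval from counting error is given, and a shallower library can miss weak peaks. Inputs were not analysed here.

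Peaks of a library were merged and covered bases counted with Python 3.11.15 and numpy 2.4.6 in promoters and bodies of GENCODE M21 genes (GRCm38). An overlap of 1 base counted as a peak. The functions were tested on simulated data. H3K4me3 was compared between genotypes by an exact permutation test (two-sided) over 32 sign arrangements of the 5 pairs, and regions by an exact permutation test over 10 splits of the controls, with Benjamini-Hochberg adjustment over all genes with a promoter peak. As a check of the pairing, which rests on the shared culture number and on the study's description of matched cultures, deviations of promoter H3K4me3 coverage correlated within a culture with r of 0.43 to 0.74 in the telencephalon and 0.07 in the brainstem, and those of H3K27me3 with r of -0.11 to 0.55. Shared peaks needed at least 2 cultures, a p-value of 1e-04 (H3K27me3) or 1e-06 (H3K4me3), and a Fisher-combined p-value of 1e-08 or 1e-10. Alternatives were stricter peaks, equal numbers of peaks per library, a smaller promoter, a longer overlap, each culture left out, and no replicate block. All members were named, with at most 4 genes of each partner list, all protein-coding neighbours within 500 kb and the 5 most alike genes. The members and lists were chosen with earlier results of these data known.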

Additional observations from a re-analysis of the deposited data

Results flagged for a closer look

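*Gbx2* was singled out because the highest fold of its promoter H3K27me3 fell in both brainstem pairs and rose in all 3 telencephalon pairs. The highest fold in K27M minus control was -3.09 and -1.13 in the brainstem pairs and 2.3, 0.734 and 15 in the telencephalon pairs. The mean difference was -2.11 in the brainstem and 6.01 in the telencephalon, 8.11 apart. These values count the missing peak in the K27M brainstem culture 59 as a fold of 0, although mark below the calling threshold is not seen, so they are not exact. The difference was not tested, since the contrast had a part in choosing the genes and 2 pairs stand against 3. In telencephalon culture 60 the rise was 0.734, promoter coverage was 3000 bases in both genotypes, and the rank within the library fell from 91.3 to 82%.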

How the results depend on the processing

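Mark too weak to be called is not seen, read depth was not used, and 5 pairs cannot reach 0.05 in the sign-flip test. Leaving out each culture gave 2572 to 2974 bases for *En2* promoter H3K27me3 (K27M minus control), 23.1 to 27.4 percentage points for the *Cnpy1* body and 22779 to 31058 bases for the interval. With as many peaks in each list as in the smallest (4739), these were 2774 bases, 29.5 percentage points and 31914 bases. With promoters from 1000 bases upstream to 500 downstream the *En2* value was 1478 bases, where 1500 is the most possible. *En2* and *Cnpy1* were in more K27M than control cultures under every alternative, joined by *Fgf8* at a fold of at least 3 and by *En1* with the smaller promoter. The gene with fewer, *Gbx2*, dropped from 1 to 0 without brainstem culture 59, and this count was 0 to 1 over the cultures left out.

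For H3K4me3, 9 to 10 of 10 genes had a lower mean in K27M under every alternative and 0 a higher one. Without the replicate block, with genotype permuted within regions, 10 of 10 stayed lower, *En1* had an exact permutation p of 0.0333 and adjusted p of 1, and no call changed. Between control regions, the number of genes with higher H3K27me3 in the telencephalon was 4, and 2 at a fold of at least 3, and 1 to 6 over the cultures left out (1 without telencephalon culture 60, 2 without telencephalon culture 61). For H3K4me3 it was 7, and 2 to 9 over the cultures left out (2 without brainstem culture 61, 4 without telencephalon culture 60). The cause was not tested, and none of these regional differences passed a test. Over all alternatives 426 values stayed within their replicate spread or on their side of the threshold, 8 moved, and 36 changed sign, none of them past a threshold.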

Other observations

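The other 5 protein-coding genes with higher promoter H3K27me3 coverage in K27M in 5 of 5 pairs were *Bmpr2*, *Cbx8*, *Fbxo43*, *Pcgf1* and *Vamp1*, named after their values were seen. Their K27M means were 472, 1582, 1876, 1891 and 1140 bases of 3000, against 148, 1369, 1686, 1451 and 937 bases in controls. CBX8 and PCGF1 are subunits of Polycomb repressive complex 1. None of the 5 reached the mean difference of *En2* or *Cnpy1*.

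A small H3K4me3 peak lay between -47.8 and -46.4 kb from the *En2* start, inside the H3K27me3 domain that all 10 libraries share. It was listed in 4 of 5 controls, with 581 to 1187 bases, and in 1 of 5 K27M libraries, with 386 bases. No gene is annotated there.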
